A study of Mus musculus with 13 samples.

Results

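The 9 genes described here are Klf2, Klf4, Klf5, Esrrb, Tbx3, Tfcp2l1, Nr0b1 and Nr5a2, which encode transcription factors of the naive pluripotent state, and Socs3, which encodes a feedback inhibitor of cytokine signalling. They are 9 of 18193 genes on the array with a probe set annotated to a single symbol. Every probe set annotated to exactly 1 of these symbols was taken, which gave 25 of 45037 probe sets without the array's controls. Probe sets brighter than the median of their array on 2 or more of the 13 arrays were tested, which 22 of the 25 were. The other 3 were Tbx3 1444594_at, above the median on 1 array, and Tfcp2l1 1460715_x_at and 1460714_at, on 0. The brightest probe set of each gene, which gives its main value, was above the median on all 13 arrays for all 9 genes.

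RNA came from mouse embryonic stem cells (ESC) with a green fluorescent reporter of Stella, the germ cell and early embryo protein encoded by Dppa3, and from embryoid bodies, which are aggregates of differentiating ESC, at day 7. There were 3 arrays of ESC sorted as Stella-negative, 2 of ESC sorted as Stella-positive, 2 of unsorted reporter ESC, 2 of Stella-negative cells of day 7 embryoid bodies and 4 of Stella-positive cells of day 7 embryoid bodies. All groups carried the reporter, so none is a culture without it. The labels call the Stella-positive day 7 cells primordial germ cells made in vitro and the Stella-negative ones not germ cells. The sources used here do not give strain, sex, reporter construct or ESC medium, nor whether replicates were separate cultures. If they were not, the p-values reflect technical variation alone. The array files describe Stella-positive ESC array 2 as carrying a BAC reporter, a word that no other array's description holds.

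Naive pluripotency is the state of the pre-implantation epiblast and of mouse ESC. It is held by a network in which LIF, a secreted cytokine, acts through JAK kinases and STAT3, and in which several transcription factors can each stand in for part of that signal. Klf4 and Tfcp2l1 are direct STAT3 targets in mouse ESC, as is Socs3, whose protein binds the receptor complex and dampens the same pathway. Klf2, Klf4 and Klf5 are Krüppel-like zinc finger factors with overlapping functions. Esrrb and Nr5a2 are orphan nuclear receptors that bind closely related DNA sites, Esrrb being a target of GSK3 inhibition through Tcf7l1. Nr0b1 (Dax1) lacks a classical DNA-binding domain and binds other nuclear receptors, and Tbx3 is a T-box factor linked to PI3K signalling. Several of these genes are lost when cells pass to the primed state, and primordial germ cells again use part of the pluripotency network.

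Values are MAS5 signal intensities, scaled so that every array has the same trimmed mean, and differences are on the log2(signal + c) scale with c = 10.5, with limma standard errors (SE). The deposited columns differed 27.1-fold in trimmed mean, with the lowest, 8.48, for Stella-positive day 7 array 4 and the highest, 230.0, for array 2 of the Stella-negative ESC. The ratio of 3′ to 5′ Gapdh control signal, a measure of RNA degradation or short labelling, was 0.803 to 0.869 on the 7 ESC arrays, 1.23 to 2.09 on the Stella-positive and 3.03 to 3.18 on the Stella-negative day 7 arrays. All 6 day 7 arrays were hybridised on 1 day, on which no ESC array was, so culture and hybridisation day cannot be told apart. Marker genes of the labelled cells were present: Pou5f1, Sox2, Nanog and Zfp42 summed to 6467 to 10618 on the ESC arrays, to 6162 to 9007 in Stella-positive and to 3367 to 3669 in Stella-negative day 7 cells. A call is an adjusted p under 0.05 (limma, Benjamini-Hochberg over 30023 probe sets). In these bulk samples, fewer cells that express a gene and less RNA per cell cannot be told apart.

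The promoters of the 4 genes that differed in the day 7 sort (below) are shown so that their sequence features can be read beside their values. The sequences are RefSeq windows on GRCm38.p6, each 250 bases before to 50 after the annotated start, printed 5′ to 3′ on the gene's strand. The windows lie at chr8:72318812-72319111, plus strand (Klf2), chr12:86360867-86361166, plus strand and chr12:86421394-86421693 on the same strand (Esrrb, with 2 starts), chrX:86191525-86191824, plus strand (Nr0b1), and chr1:136960399-136960698, minus strand and chr1:136953581-136953880 on the same strand (Nr5a2, with 2 starts). Capitals mark every match, on either strand, to CACCC or GGGNGGGGC (Krüppel-like factors), TCAAGGTCA or its shorter form CAAGGTCA (Esrrb and Nr5a2), ATGCAAAT (octamer), TTCNNNGAA or TTCNNGGAA (STAT3, which can overlap each other) and TATAAA.
Klf2: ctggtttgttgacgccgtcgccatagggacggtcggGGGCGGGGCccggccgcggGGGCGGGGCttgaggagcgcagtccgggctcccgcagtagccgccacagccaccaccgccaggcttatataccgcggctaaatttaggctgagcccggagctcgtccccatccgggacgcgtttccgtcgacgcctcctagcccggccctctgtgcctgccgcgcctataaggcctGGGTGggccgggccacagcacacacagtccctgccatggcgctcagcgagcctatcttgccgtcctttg
Esrrb, start 1: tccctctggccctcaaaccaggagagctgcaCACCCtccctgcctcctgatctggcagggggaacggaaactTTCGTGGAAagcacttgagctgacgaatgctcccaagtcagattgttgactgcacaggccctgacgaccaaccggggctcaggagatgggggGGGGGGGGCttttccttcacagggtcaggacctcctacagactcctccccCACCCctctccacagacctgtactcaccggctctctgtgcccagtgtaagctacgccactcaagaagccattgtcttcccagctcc
Esrrb, start 2: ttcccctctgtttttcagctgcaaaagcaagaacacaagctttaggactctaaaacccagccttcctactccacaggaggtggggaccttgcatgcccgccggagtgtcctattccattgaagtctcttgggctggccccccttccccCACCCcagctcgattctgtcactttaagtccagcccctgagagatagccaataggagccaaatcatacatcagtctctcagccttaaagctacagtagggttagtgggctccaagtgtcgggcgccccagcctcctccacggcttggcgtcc
Nr0b1: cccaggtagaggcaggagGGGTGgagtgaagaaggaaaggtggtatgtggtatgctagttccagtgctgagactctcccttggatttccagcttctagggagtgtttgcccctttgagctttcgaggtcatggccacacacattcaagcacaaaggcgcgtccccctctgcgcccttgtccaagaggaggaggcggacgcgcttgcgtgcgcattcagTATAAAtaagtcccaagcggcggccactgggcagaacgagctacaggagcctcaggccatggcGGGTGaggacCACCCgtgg
Nr5a2, start 1: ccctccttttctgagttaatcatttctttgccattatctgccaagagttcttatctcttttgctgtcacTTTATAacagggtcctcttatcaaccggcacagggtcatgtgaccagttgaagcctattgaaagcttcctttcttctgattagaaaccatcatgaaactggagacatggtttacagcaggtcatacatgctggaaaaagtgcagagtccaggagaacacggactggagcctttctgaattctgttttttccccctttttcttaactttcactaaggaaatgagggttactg
Nr5a2, start 2: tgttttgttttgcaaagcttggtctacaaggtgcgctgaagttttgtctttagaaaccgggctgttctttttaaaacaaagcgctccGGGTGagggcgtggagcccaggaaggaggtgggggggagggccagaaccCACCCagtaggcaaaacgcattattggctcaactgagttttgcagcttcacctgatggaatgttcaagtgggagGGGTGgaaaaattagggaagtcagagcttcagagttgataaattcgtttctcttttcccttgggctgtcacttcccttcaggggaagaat

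Windows were found for 7 of the 9 genes, 9 windows in all. The Klf2 window holds 2 matches to GGGNGGGGC, at 214 and 195 bases before the start, and the Klf4 window holds 4 such matches. The first Esrrb window holds 1 such match, 86 bases before the start, and the Socs3 window holds 1. Of all 32851 RefSeq windows, 17.0% hold this motif. CACCC was matched in 7 of the 9 windows, in all but those of Klf4 and the first Nr5a2 start, and in 57.5% of all windows. The STAT3 motif TTCNNNGAA was matched in the first Esrrb window, 178 bases before the start, where it also fits TTCNNGGAA, and in the Socs3 window, 154 bases before the start. These motifs are in 8.30% and 4.81% of all windows. TATAAA lies 28 bases before the Tfcp2l1 start and 32 before the Nr0b1 start, and, on the other strand, in the first Nr5a2 window, against 13.6% of all windows. The Esrrb and Nr5a2 motifs, at 0.42% for the longer and 1.56% for the shorter form, and the octamer, at 1.74%, were matched in none of the 9 windows. G and C made up 42.0% and 49.0% of the 2 Nr5a2 windows and 55.3% to 74.3% of the other 7, against a median of 52.7% over all windows. The matches describe these letters only, and none was tied to a level.

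The first comparison asked how Stella-positive and Stella-negative cells of day 7 embryoid bodies differed. Nr5a2, Nr0b1, Esrrb and Klf2 were higher in Stella-positive cells, by 1.82-fold to 2.49-fold, and none of the 9 was called lower. Klf4, Klf5, Tbx3, Tfcp2l1 and Socs3 did not pass the test. Over all 14007 genes tested, 10.2% were called higher and 9.07% lower. The median difference of the 9 genes was 0.51 on the log2 scale, against -0.12 over all probe sets tested.

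**Figure D1:**
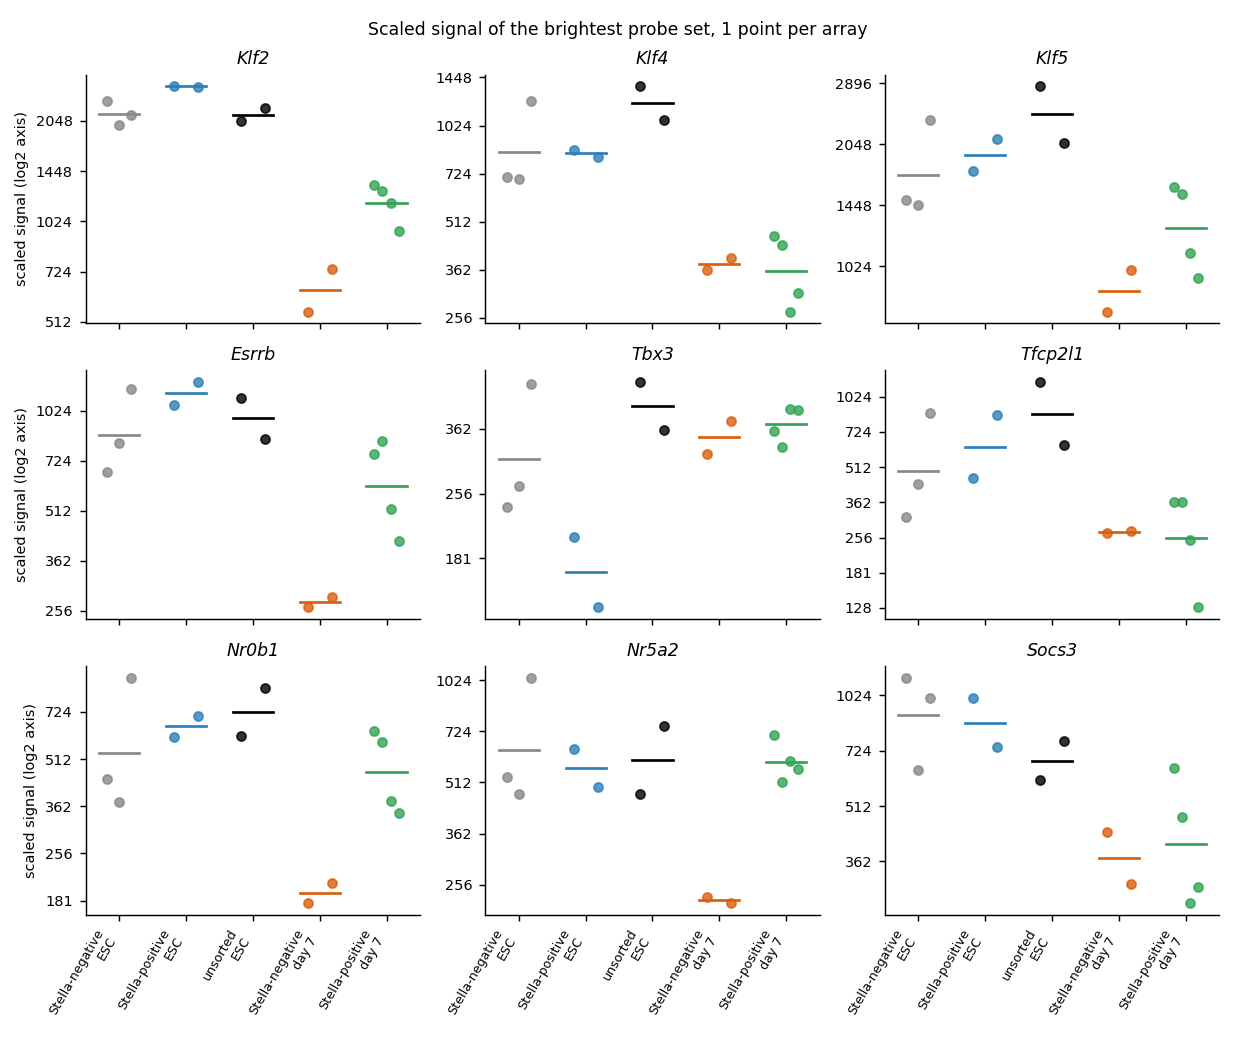
Scaled signal (log2 axis) of the brightest probe set of each gene, 1 point per array in the 5 groups, with bars at the geometric mean. The Stella-negative day 7 arrays are the lowest points for Nr5a2, Nr0b1, Esrrb and Klf2, and the Stella-positive ESC arrays are the lowest for Tbx3.

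Nr5a2 encodes a receptor that in mouse ESC binds the Pou5f1 regulatory region. Its signal was 236 and 225 in Stella-negative day 7 cells against 704, 514, 592 and 562 in Stella-positive ones. The lowest Stella-positive array was above both Stella-negative ones. The difference was 1.31 ± 0.27 (SE; n = 4 and 2; limma adjusted p = 0.00407).

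Nr0b1 encodes the co-regulator Dax1. It read 177 and 206 in Stella-negative day 7 cells against 627, 583, 375 and 345 in Stella-positive ones. The groups did not overlap, and Stella-positive arrays 3 and 4 lay below arrays 1 and 2. The difference was 1.24 ± 0.31 (SE; limma adjusted p = 0.0133).

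Esrrb read 262 and 281 in Stella-negative day 7 cells against 758, 829, 517 and 415 in Stella-positive ones. Again every Stella-positive array was higher, with arrays 3 and 4 the lower pair. The difference was 1.13 ± 0.27 (SE; limma adjusted p = 0.00919).

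Klf2 read 550 and 736 in Stella-negative day 7 cells against 1314, 1265, 1161 and 957 in Stella-positive ones. The groups did not overlap, and the Stella-negative arrays lay further apart here than for the other 3 genes. The difference was 0.86 ± 0.18 (SE; limma adjusted p = 0.00417).

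These 4 calls rested on the 2 Stella-negative arrays. Without Stella-negative day 7 array 1, 0 of the 9 genes were called (limma; Klf2 adjusted p = 0.12), and without array 2, 1 was, with the remaining array assumed to vary like the other groups. The differences without array 1 ran the same way for all 4 genes. With the hybridisation run as a block 1 of the 9 genes, Esrrb, was called, and adjusting for the Gapdh ratio left 0. The Gapdh ratios of the 2 groups did not overlap. Stella-negative array 1 and Stella-positive array 4 were each alone in their hybridisation run. The run block thus compared Stella-negative array 2 with Stella-positive arrays 1 to 3, and a run effect cannot be read from it. Median centring of the arrays, in place of the trimmed mean, moved the median difference of all probe sets from -0.12 to 0.12 and the share of higher among called probe sets from 52.1% to 77.7%. All 4 genes were called under median centring and under quantile normalization.

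Among the 5 genes that did not pass, Klf5 came nearest. It read 792 and 1005 in Stella-negative against 1608, 1544, 1105 and 958 in Stella-positive cells, so the groups overlapped, at 0.51 ± 0.25 (SE; limma adjusted p = 0.171). Klf4, with 361 and 394 against 461, 434, 268 and 306, differed by -0.07 ± 0.25 (95% interval -0.60 to 0.46). Tfcp2l1, with 268 and 273 against 365, 363, 249 and 129, differed by -0.08 ± 0.41 (95% interval -0.94 to 0.79). Both values turned positive under median centring, at 0.16 each. Socs3, with 435 and 315 against 652, 478, 278 and 308, differed by 0.13 ± 0.31 (95% interval -0.52 to 0.77). The Stella-negative values of Klf4, Tfcp2l1 and Socs3 lay inside the range of the Stella-positive ones, which split into a higher pair, arrays 1 and 2, and a lower pair, arrays 3 and 4.

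Tbx3 gave different answers by probe set. The brightest read 317 and 378 in Stella-negative against 357, 328, 402 and 399 in Stella-positive day 7 cells, a difference of 0.10 ± 0.25 (95% interval -0.43 to 0.62). The next, 1437479_x_at, read 325 and 441 against 273, 193, 167 and 176, and was called lower, at -0.90 ± 0.29 (SE; limma adjusted p = 0.045). The 2 dim probe sets, which exceeded the array median on 5 arrays each, differed by -1.07 ± 0.40 and -0.73 ± 0.46 and did not pass (limma adjusted p = 0.0803 and 0.292). Their order on the transcript was not analysed here, and the probe sets cannot be ranked by which measures the gene better.

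The other genes with several probe sets varied as well. Klf5 1451739_at read 91.4 and 82.7 in Stella-negative against 128.1, 114.9, 214.6 and 177.5 in Stella-positive day 7 cells. The groups did not overlap, but the difference of 0.76 ± 0.27 did not pass (limma adjusted p = 0.0616). The dim Klf5 1430255_at, above the array median on 2 arrays, differed by -0.64 ± 0.55. Klf4 1417395_at, with 203 and 154 against 228, 227, 195 and 211, differed by 0.27 ± 0.32. Of the 4 Nr5a2 probe sets 3 were called higher in the day 7 sort, 1456521_at at 0.99 ± 0.27 and 1449706_s_at at 1.70 ± 0.42 (limma adjusted p = 0.0199 and 0.0121), and the dimmest differed by 0.84 ± 0.45. For Esrrb, 1441921_x_at differed by 0.49 ± 0.26 and 1422986_at by 0.39 ± 0.54, and neither passed. The log2 values of 1441921_x_at had a Pearson r of -0.14 with those of the brightest Esrrb probe set over the 13 arrays, and those of 1422986_at 0.78. The 2 dimmer Socs3 probe sets differed by -0.50 ± 0.28 and -0.66 ± 0.31, against 0.13 ± 0.31 for the brightest, and had r of 0.81 and 0.85 with it.

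**Figure D2:**
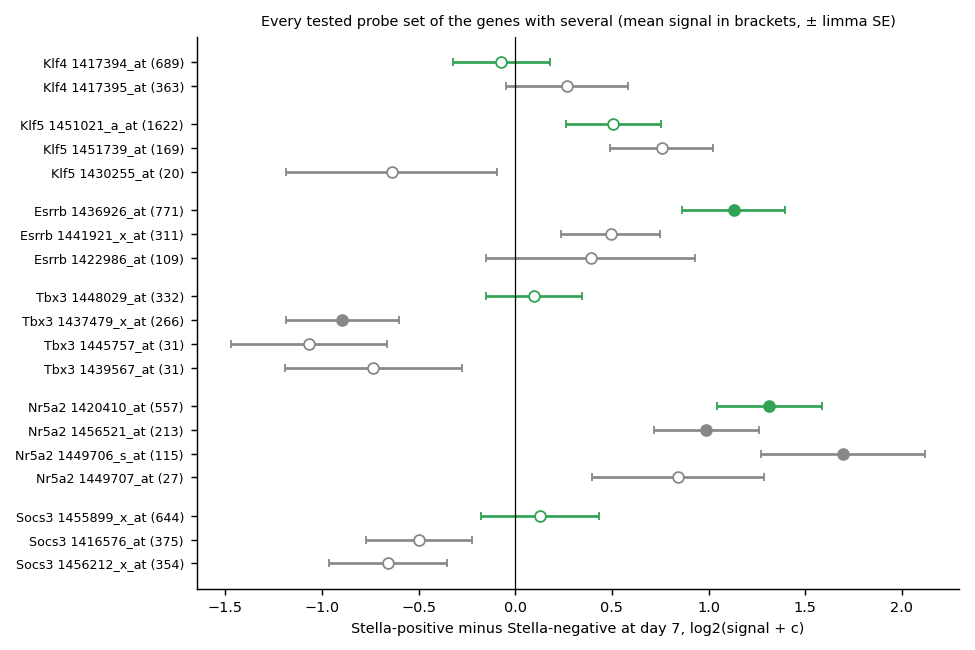
Difference of Stella-positive minus Stella-negative day 7 cells, log2(signal + c), with limma SE, for every tested probe set of the 6 genes with several. Green is the gene's brightest, filled points have an adjusted p under 0.05, and the mean scaled signal is in brackets. The brightest Tbx3 probe set lies at 0.10 and the other 3 lie below 0.

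Markers of other cell types moved with the day 7 sort. The 13 endoderm markers summed to 23173 and 25107 in Stella-negative against 8634, 8864, 875 and 1086 in Stella-positive day 7 cells. The 7 cardiac markers summed to 4075 and 4405 against 1277, 1420, 180 and 272, and the 7 blood markers to 4259 and 4400 against 431, 388, 245 and 181. In the test, 11 of 13 endoderm, 7 of 7 cardiac and 3 of 7 blood markers were called lower in Stella-positive cells, counts that were 6, 4 and 3 under median centring. The 7 germ cell markers summed to 731 and 703 against 2624, 2611, 3284 and 2809, with 5 of 7 called higher. Dppa3, whose reporter defined the sort, is 1 of the 7 and 1 of the 5. The other 6 summed to 656 and 601 against 1817, 1882, 2206 and 1670.2. The part of these markers in the differences of the 9 genes was not tested.

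**Figure D3:**
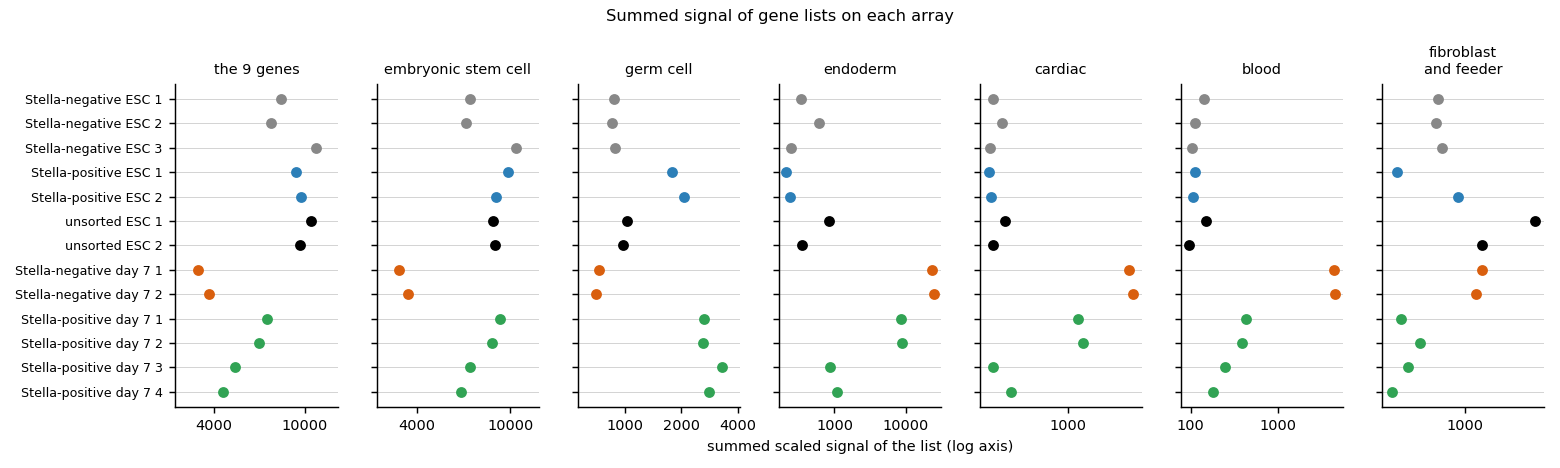
Summed scaled signal of the 9 genes and of 6 marker lists on each of the 13 arrays (log axes, each panel with its own range). The 2 Stella-negative day 7 arrays are lowest for the 9 genes and for the embryonic stem cell markers and highest for endoderm, cardiac and blood markers.

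The 4 Stella-positive day 7 arrays differed among themselves. For 7 of the 9 genes, Klf2, Klf4, Klf5, Esrrb, Tfcp2l1, Nr0b1 and Socs3, arrays 3 and 4 were both below arrays 1 and 2, which held for 23.5% of all genes tested. For Tbx3 both were above, which held for 25.0% of all genes. The same 2 arrays had the lowest deposited trimmed means, 29.1 and 8.48 against 82.9 and 71.7, and an actin 3′ to 5′ ratio of 4.89 and 5.16 against 2.04 and 2.17. They also had less endoderm and cardiac marker signal, as given above. Without them, 5 of the 9 genes were called in the day 7 sort, Klf5 being the added one (0.81, limma adjusted p = 0.0294).

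The second comparison asked whether the same reporter split ESC by these genes. Stella-positive ESC array 2 was hybridised on another day and with another chip lot. Stella-positive array 1 and the Stella-negative ESC arrays shared theirs. Of the 9 genes 0 were called between Stella-positive and Stella-negative ESC (limma), against 0.00714% of all genes tested, which is 1 gene, Dppa3. At an unadjusted p under 0.05 (limma) stood 834 of 30023 probe sets, Tbx3 among the 9 genes. That is fewer probe sets than this threshold would give with no difference in any of them.

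Tbx3 read 239, 266 and 459 on the Stella-negative ESC arrays and 203 and 139 on the Stella-positive ones. Both Stella-positive arrays were below all 3 Stella-negative ones. The difference was -0.83 ± 0.26 (SE; 95% interval -1.39 to -0.28; not called). The probe set 1437479_x_at read 211, 262 and 411 against 189.9 and 97.3, again without overlap, and was not called, nor was 1445757_at, at -1.26 ± 0.42.

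Klf2 read 2352, 1988 and 2126 on the Stella-negative and 2606 and 2585 on the Stella-positive ESC arrays. The groups did not overlap, but the difference of 0.27 ± 0.19 (95% interval -0.13 to 0.67) did not pass. Esrrb, at 0.41 ± 0.28, and Nr0b1, at 0.28 ± 0.33, overlapped between the groups. Nr5a2, at -0.18 ± 0.29, overlapped too, and its value turned positive, to 0.17, without Stella-negative ESC array 3.

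**Figure D4:**
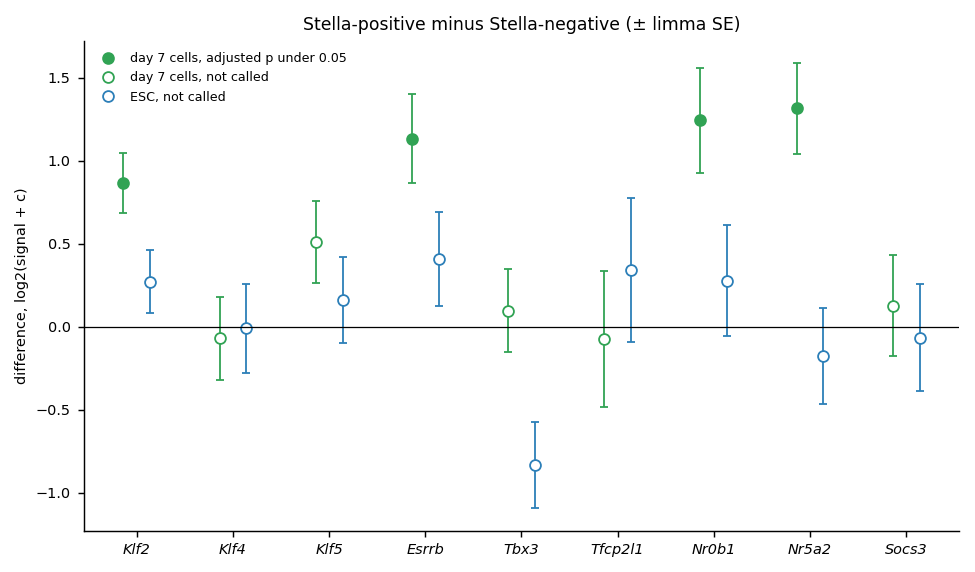
Difference of Stella-positive minus Stella-negative cells, log2(signal + c), with limma SE, for the brightest probe set of each gene, in day 7 cells (green) and in ESC (blue). Filled points have an adjusted p under 0.05, which holds for Klf2, Esrrb, Nr0b1 and Nr5a2 at day 7 and for no gene in ESC.

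Stella-negative ESC array 3 stood apart from its group for these genes. It was the highest of the 3 for 7 of the 9 genes, all but Klf2 and Socs3, and the lowest for 0, against 28.9% and 43.7% of all genes tested. Nr0b1 read 931 there against 442 and 373, Nr5a2 1041 against 530 and 472, and Tfcp2l1 873 against 315 and 433. The 4 embryonic stem cell markers summed to 10618 there against 6719 and 6467. Its Gapdh ratio, 0.869, was near the others of its group, and its correlations with arrays 1 and 2 were 0.966 and 0.965, against 0.971 between those.

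Whether the sort differed between day 7 and ESC was tested as an interaction. Of the 9 genes 0 were called (limma), against 0.807% of all genes tested. Nr5a2 had the largest interaction, 1.49 ± 0.40 (SE; 95% interval 0.66 to 2.33; limma adjusted p = 0.0907), followed by Nr0b1 at 0.96 ± 0.46 and Tbx3 at 0.93 ± 0.36. Esrrb, at 0.72 ± 0.39, and Klf2, at 0.59 ± 0.26, were smaller. Tbx3's interaction fell to -0.05 when its probe sets were averaged. So a difference between the day 7 and the ESC sort was not shown for any of the 9 genes, and the 4 calls at day 7 are not shown to be absent in ESC.

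The third comparison set day 7 cells against ESC within each sorted fraction. In Stella-negative cells 7 of the 9 genes were lower at day 7, and 16.0% of all genes tested were. In Stella-positive cells 5 were lower, against 6.80% of all genes, and 1, Tbx3, was higher, against 9.02%. The median difference of the 9 genes was -1.27 in Stella-negative and -0.92 in Stella-positive cells, against 0.24 and 0.16 over all probe sets tested. Under median centring these 2 background medians became -0.36 and -0.28, and the share of higher among called probe sets fell from 55.1% to 16.8% and from 53.0% to 12.1%.

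Klf2 had the smallest p of the 9 genes in both fractions. In Stella-negative cells it went from 2352, 1988 and 2126 in ESC to 550 and 736 at day 7, a difference of -1.74 ± 0.19 (SE; limma adjusted p = 7.25e-06). In Stella-positive cells it went from 2606 and 2585 to 1314, 1265, 1161 and 957, a difference of -1.15 ± 0.18 (SE; limma adjusted p = 0.000681). No day 7 array reached any ESC array, in either fraction.

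Klf4, a STAT3 target, fell in both fractions. Stella-negative cells read 709, 696 and 1224 in ESC and 361 and 394 at day 7, at -1.14 ± 0.27 (SE; limma adjusted p = 0.00374). Stella-positive cells read 860 and 818 in ESC and 461, 434, 268 and 306 at day 7, at -1.20 ± 0.25 (SE; limma adjusted p = 0.00458). The second Klf4 probe set, 1417395_at, gave -0.51 ± 0.33 and -0.57 ± 0.32 and was not called in either.

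Socs3, also a STAT3 target, fell by 1.27 ± 0.32 and by 1.07 ± 0.31 on the log2 scale (limma adjusted p = 0.00672 and 0.0248). It read 1144, 640 and 1010 in Stella-negative and 1007 and 740 in Stella-positive ESC, and within each fraction every day 7 array was below every ESC array. The call in Stella-positive cells was lost without either Stella-positive ESC array or without day 7 array 3 (limma adjusted p up to 0.225), and that in Stella-negative cells without day 7 array 2 (limma adjusted p = 0.0877). Over all 19 alternatives, the Socs3 call in Stella-positive cells was lost under 8 and its sign turned under 1 more. The Socs3 probe set 1416576_at was called lower in both fractions and 1456212_x_at in Stella-positive cells. Esrrb fell by 1.64 ± 0.28 in Stella-negative and by 0.92 ± 0.27 in Stella-positive cells (limma adjusted p = 0.000383 and 0.028), from 670.0, 818 and 1191 and from 1064 and 1252 in ESC. The call in Stella-positive cells was lost when any of its arrays but day 7 arrays 1 and 2 was left out (limma adjusted p up to 0.224). Over all 19 alternatives, the Esrrb call in Stella-positive cells was lost under 7 and its sign turned under 1 more. The Esrrb probe set 1422986_at was called lower in both fractions, and 1441921_x_at, at 0.31 ± 0.27 and 0.63 ± 0.26, in neither.

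Nr5a2 and Nr0b1 were called lower in Stella-negative cells only, though the interaction above did not pass for them. Nr5a2 read 530, 472 and 1041 in Stella-negative ESC, a difference of -1.43 ± 0.29 at day 7 (SE; limma adjusted p = 0.00132). In Stella-positive ESC it read 642 and 495, inside the range of the day 7 arrays apart from the lower value, with a difference of 0.06 ± 0.27 (95% interval -0.51 to 0.64). That value turned negative, to -0.38, under median centring. Nr0b1 read 442, 373 and 931 in Stella-negative ESC, a difference of -1.44 ± 0.33 (SE; limma adjusted p = 0.00355). In Stella-positive ESC it read 603 and 704, with a difference of -0.47 ± 0.31 (95% interval -1.14 to 0.19).

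Klf5 was called lower in Stella-negative cells, at -0.94 ± 0.26 (SE; limma adjusted p = 0.0114), from 1494, 1448 and 2353 in ESC. In Stella-positive cells, from 1759 and 2105, its -0.59 ± 0.25 did not pass. The Stella-negative call was lost without Stella-negative ESC array 3 or day 7 array 1, with an adjusted p of up to 0.126 over the arrays left out. Tfcp2l1 was called in the other fraction, at -1.25 ± 0.41 (SE; limma adjusted p = 0.0478) from 458 and 854 in ESC. In Stella-negative cells, at -0.84 ± 0.43, it did not pass. Its call was lost under 14 of 19 alternatives, quantile normalization and no filter among them and with any of 4 arrays left out, Stella-positive ESC 1 or 2 or day 7 3 or 4 (limma adjusted p up to 0.414), and its sign turned under 1 more. Under median centring both genes were called lower in both fractions: Klf5 in Stella-positive cells became -1.03 (limma adjusted p = 0.0488) and Tfcp2l1 in Stella-negative cells -1.44 (limma adjusted p = 0.0485). A difference between the fractions was thus not shown for either gene.

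Tbx3 alone of the 9 genes was called higher at day 7, in Stella-positive cells, at 1.09 ± 0.25 (SE; limma adjusted p = 0.00737). The ESC level there, 203 and 139, was the lowest of the 5 groups. In Stella-negative cells the difference was 0.16 ± 0.26. The call was lost under median centring, where the difference was 0.65 (limma adjusted p = 0.164), and without Stella-positive ESC array 2 (limma adjusted p = 0.148). The other 3 Tbx3 probe sets differed by 0.11 to 0.51 and were not called.

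**Figure D5:**
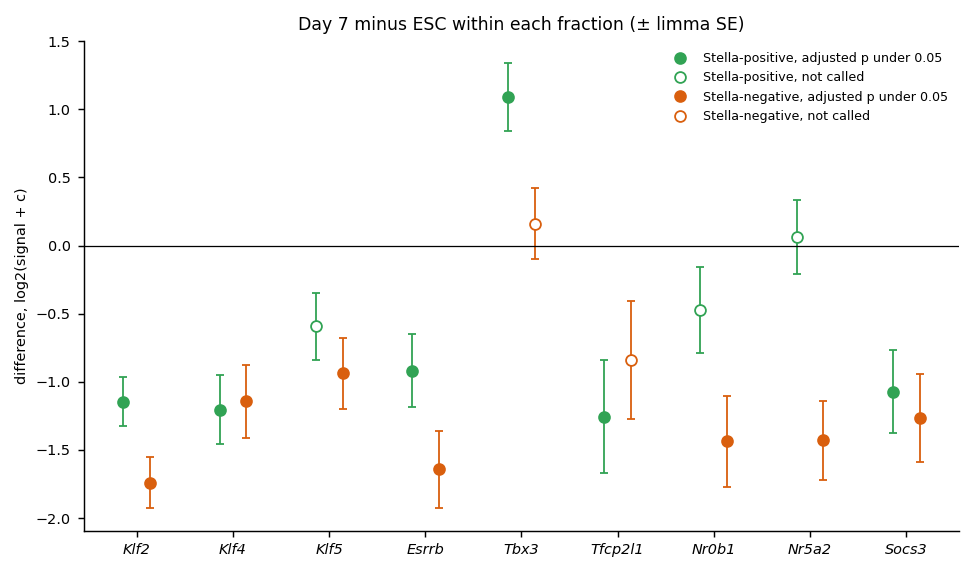
Difference of day 7 minus ESC, log2(signal + c), with limma SE, for the brightest probe set of each gene in Stella-positive (green) and Stella-negative (orange) cells. Filled points have an adjusted p under 0.05, and Tbx3 in Stella-positive cells is the 1 filled point above 0.

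The culture comparisons also changed with the arrays left out. Without Stella-positive ESC array 2, the one described with a BAC reporter, 1 of the 9 genes was called in Stella-positive cells, Klf2, and 3 were without Stella-positive ESC array 1, without day 7 array 3, or without day 7 arrays 3 and 4. In Stella-negative cells 6 to 7 genes were called when any array was left out. Adjusting for the Gapdh ratio left 0 genes called in either fraction, in a design where no ESC array's ratio overlaps any day 7 array's.

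Unsorted ESC gave a second reference. Against them, Stella-negative day 7 cells were lower in 7 of the 9 genes, all but Tbx3 and Socs3, by 1.33 to 1.86 on the log2 scale, with 8% of all genes called lower. Stella-positive day 7 cells were lower in 4, Klf2, Klf4, Klf5 and Tfcp2l1, with 3.38% of all genes called lower. The 4 differences were -0.87 ± 0.18, -1.72 ± 0.25, -0.93 ± 0.25 and -1.72 ± 0.41 (limma adjusted p = 0.00784, 0.00082, 0.0322 and 0.0182). The Klf5 call was lost under 14 of 19 alternatives (limma adjusted p up to 0.83) and that of Tfcp2l1 under 6 of 19. Of the 22 probe sets tested, 9 were called lower in Stella-positive and 11 in Stella-negative day 7 cells, and 0 higher (limma). Those called in Stella-positive cells included Klf5 1451739_at, at -1.22 ± 0.27. They also included Esrrb 1422986_at, Tbx3 1445757_at and Socs3 1456212_x_at, at -2.03 ± 0.54, -1.62 ± 0.40 and -1.06 ± 0.31. The brightest probe sets of those last genes were not called there. These comparisons share their day 7 arrays with those above. Without unsorted array 1 or unsorted array 2, 2 genes were called in Stella-positive cells, and without Stella-negative day 7 array 1, 4 were in Stella-negative cells.

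Between unsorted and sorted ESC, Tbx3 was called higher in unsorted than in Stella-positive cells, at 1.23 ± 0.29 (SE; limma adjusted p = 0.0276), with 465 and 360.0 against 203 and 139. Of all genes 2.23% were called higher there. The call was lost under median centring (limma adjusted p = 0.167), and without unsorted array 1 or either Stella-positive array (limma adjusted p up to 0.263). Tbx3 1437479_x_at and 1445757_at were also called higher in unsorted than in Stella-positive ESC, at 1.33 ± 0.34 and 1.79 ± 0.47 (limma adjusted p = 0.038 and 0.043). Tbx3 1439567_at, at 0.51 ± 0.53, was not. Against Stella-negative ESC 0 of the 9 genes were called by their brightest probe set (limma), with 2.20% of all genes called in either direction. The second probe sets of Klf4 and Klf5 were an exception. Klf4 1417395_at read 1142 and 844 on the unsorted arrays, 192, 169 and 508 on the Stella-negative and 304 and 347 on the Stella-positive ESC arrays, and was called higher against both, at 1.90 ± 0.33 and 1.57 ± 0.37 (limma adjusted p = 0.00846 and 0.0279). Klf5 1451739_at read 450.2 and 310 on the unsorted arrays and at most 147 on the 5 sorted ESC arrays, at 1.48 ± 0.28 and 1.54 ± 0.31 (limma adjusted p = 0.0121 and 0.0141). The 7 fibroblast and feeder cell markers summed to 4949 and 1464 on the unsorted arrays and to 208 to 842 on the sorted ESC arrays, with 3 of 7 called higher against each sorted fraction, Dcn and Postn among them. Their part in the Klf4 and Klf5 values was not tested. The unsorted arrays were hybridised on a day, and with a chip lot, that no sorted ESC array shared. Differences between unsorted and sorted ESC therefore cannot be told apart from hybridisation day or lot.

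Ordered by group mean, Klf2, Esrrb, Nr0b1 and Nr5a2 were lowest in Stella-negative day 7 cells, with no overlap with the next group. The share of all genes with this order was not counted, so the order is a description. For these 4 genes the neighbouring ESC groups overlapped, except that Klf2 in Stella-positive ESC stood above the rest. Stella-positive day 7 cells came next above them for Klf2, Esrrb and Nr0b1, overlapping the next higher group for Esrrb and Nr0b1 and not for Klf2. For Nr5a2 they stood in the middle of the order, overlapping the groups on either side. Klf4 and Tfcp2l1 had their 2 day 7 groups lowest and overlapping. For Klf4 every day 7 array was below every ESC array, whereas for Tfcp2l1 Stella-positive day 7 arrays 1 and 2 were above Stella-negative ESC array 1, at 315. For Klf5 and Socs3 every neighbouring pair in the order overlapped. Tbx3 had the order unsorted ESC, Stella-positive day 7, Stella-negative day 7, Stella-negative ESC and Stella-positive ESC, of which only the last did not overlap its neighbour.

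Across the 13 arrays, log2 values of the 8 genes other than Tbx3 had Pearson r of 0.34 to 0.92 with each other over 28 pairs. The highest was between Klf5 and Esrrb and the lowest between Tfcp2l1 and Nr5a2. Tbx3 had r of -0.42 to 0.10 with the other 8. With group means taken out, the same ranges were 0.14 to 0.95 and -0.14 to 0.60. The points share arrays, scaling and culture, so these values are a description.

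The genes most alike in pattern were found among the 14006 other genes tested, over 13 arrays. For Esrrb these were Mybl2 at r = 0.99, Got1 and Ckb. Mybl2, a cell cycle transcription factor, was also among the 3 most alike for Klf5 and Nr0b1. For Klf2 they were the glycolytic genes Pkm (r = 0.98) and Aldoa, and Zswim1. For Nr0b1 the most alike was Eed (r = 0.97), a subunit of the Polycomb complex PRC2, followed by Mybl2 and Zfp296. Klf5 had Vps50 and Tgif1, Klf4 had Rab7, Pmel and Pcolce, and Nr5a2 had Zfp936 (r = 0.94), Ggct and Mcm10. Socs3 had Hprt (r = 0.94), Fgf4 and G3bp1. Tfcp2l1 had Gsto1, Klf5 (r = 0.91) and Acot9, the 1 case of another of the 9 genes. Tbx3 had Stt3a, Bcat1 and Mcts2, with r of 0.84 to 0.88.

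Genes of LIF and STAT3 signalling were followed, 14 of them tested, with induced targets such as Pim1 and Junb among them. In the day 7 sort 1 was higher, Pim1, a STAT3-induced kinase, at 0.72 ± 0.20 (limma adjusted p = 0.0235), and 0 were lower (limma). From ESC to day 7, 3 of the 14 fell in Stella-negative and 2 in Stella-positive cells. For this and the lists below, 10.2% of all genes tested were called higher and 9.07% lower in the day 7 sort. Between ESC and day 7, 16% were called lower in Stella-negative cells, and 6.8% lower and 9.02% higher in Stella-positive cells. The share of all genes called higher in Stella-negative cells was not counted. Of the probe sets called there, 55.1% were higher. For this and the lists below, counts of genes higher in Stella-negative cells at day 7 are therefore a description. Stat3 itself fell by 1.05 ± 0.25 in Stella-negative and by 1.72 ± 0.23 in Stella-positive cells, and Junb, an immediate early target, by 2.30 ± 0.39 and 1.81 ± 0.37. Myc fell by 1.93 ± 0.38 in Stella-negative cells. Jak2 was called higher in both, at 1.65 ± 0.41 and 1.51 ± 0.39, calls that were lost under median centring (limma adjusted p = 0.0511 and 0.0622).

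Of 14 core and other stem cell factors, 5 were higher in Stella-positive day 7 cells and 0 lower (limma), with Pou5f1 at 1.72 ± 0.18, Gbx2 at 1.42 ± 0.47 and Zfp42 at 1.18 ± 0.29 as the largest. Their median was 0.67. Under median centring 4 were higher. Gbx2 was dim, at 1.92 and 7.07 in Stella-negative against 22.4, 16.5, 22.0 and 74.9 in Stella-positive day 7 cells. Only the last of these values exceeded its array's median. Between ESC and day 7, 8 of the 14 fell and 2 rose in Stella-negative cells, and 5 fell and 1 rose in Stella-positive cells, and under median centring 10 and 1, and 5 and 1. Gbx2 fell by 3.07 ± 0.49, Pou5f1 by 2.60 ± 0.19 and Tdgf1 by 2.22 ± 0.26 in Stella-negative cells. In Stella-positive cells Utf1 fell by 1.40 ± 0.26, Tdgf1 by 1.38 ± 0.24 and Pou5f1 by 1.09 ± 0.18. The interaction of Pou5f1 was called, at 1.51 ± 0.27 (limma adjusted p = 0.0215). Tet2, which encodes a 5-methylcytosine oxidase, rose in both, by 1.95 ± 0.33 and 1.77 ± 0.31.

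The primed epiblast genes, which mark the state that follows naive pluripotency, mostly did not pass. Of 10 tested, 1 was lower in the day 7 sort, Cldn6, a tight junction gene also made by endoderm, at -2.09 ± 0.42 (limma adjusted p = 0.00328). None was higher there, whereas under median centring and under quantile normalization 1 was higher and 1 lower. From ESC to day 7, 0 were called in Stella-positive cells (limma), and in Stella-negative cells 2 were higher, Cer1 and Cldn6, and 1 lower, Sox3, at -1.31 ± 0.36. Both higher calls were lost under median centring.

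Of 12 FGF and ERK feedback genes, 1 was higher in the day 7 sort, Etv4, an ETS factor induced by FGF, at 1.56 ± 0.28 (limma adjusted p = 0.0015). Dusp6 and Fgfr2 were lower, calls that were lost under median centring. In culture Etv4 fell by 3.03 ± 0.29 in Stella-negative and by 1.06 ± 0.28 in Stella-positive cells, and its interaction was called, at 1.97 ± 0.40 (limma adjusted p = 0.0336). In all, 4 were lower and 5 higher in Stella-negative and 2 lower and 1 higher in Stella-positive cells, and under median centring 4 and 2, and 3 and 1.

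Of 10 genes of Wnt signalling, 2 were higher in the day 7 sort, Axin1 at 1.19 ± 0.22 and Tcf7l1 at 0.80 ± 0.25, and 3 lower, Tcf7l2 at -1.83 ± 0.36, Gsk3a and Gsk3b, of which Tcf7l2 alone was under median centring. The Tcf7l1 call was lost under quantile normalization, at 0.70 (limma adjusted p = 0.0848). Tcf7l1 encodes the repressor of Esrrb and other naive genes in mouse ESC. From ESC to day 7 it rose in Stella-positive cells, by 1.49 ± 0.25 (limma adjusted p = 0.00102), where 2 of the 10 genes were called higher and 0 lower (limma), or 1 and 1 under median centring. In Stella-negative cells 4 were called higher and 1 lower, or 2 and 3 under median centring, and the Tcf7l1 rise of 1.20 ± 0.26 was lost as a call under median centring (limma adjusted p = 0.118).

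Paralogs were followed to see how the rest of each family stood. Of 13 other Krüppel-like genes 0 were called in the day 7 sort (limma). From ESC to day 7, 7 were called higher and 1 lower in Stella-negative cells, against 0 and 1 under median centring. The share of all genes higher there was not counted, so the 7 are a description. In Stella-positive cells 3 were called higher, Klf9 at 1.60 ± 0.26, Klf12 at 1.52 ± 0.34 and Klf7, against 2 higher and 1 lower under median centring. Klf16 was the gene called lower, at -0.87 ± 0.26 in Stella-negative cells.

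Of 21 other nuclear receptor, T-box, Grainyhead and SOCS genes tested, 2 were higher in the day 7 sort, Socs2, a paralog of Socs3, at 1.29 ± 0.33 (limma adjusted p = 0.0146), and Grhl1, of the family of Tfcp2l1, at 0.94 ± 0.30. There 5 were lower, led by Tbx20, a heart T-box factor, at -2.48 ± 0.49 and Nr5a1, the paralog of Nr5a2, at -1.84 ± 0.43. Under median centring 2 were higher and 2 lower. Nr5a1 exceeded the array median on the 2 Stella-negative day 7 arrays alone, at 52.9 and 64.4. Tbx20 exceeded it on those arrays, at 157 and 187, and otherwise only on Stella-positive day 7 array 1, at 50.2. Both genes were thus kept for the test only through the Stella-negative day 7 group, where they were high. From ESC to day 7, 7 were higher in Stella-negative cells, led by Tbx20 at 2.81 ± 0.51, and 3 in Stella-positive cells, against 6 and 0 under median centring (limma).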

How the data were processed

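RNA of 13 samples in 5 groups was measured on 1-colour Affymetrix mouse arrays, 1 array a sample. The deposited values are linear signal intensities, made with MAS5 per the submitters' processing notes. The array has 45101 probe sets, of which 64 controls were left out; 34945 of the rest have 1 gene symbol in the platform annotation, 932 several and 9160 none. No pair of columns was identical.

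Each array was scaled to a common trimmed mean of 105 (2% trimmed at each end), and log2(signal + c) was taken with c = 10.5, which understates changes of dim probe sets. Probe sets above the array median on at least 2 arrays were kept, 30023 in all. One group-means model over all 13 arrays was fitted with limma 3.58.1 in R 4.3.3 (lmFit, eBayes with trend), and p-values were adjusted by Benjamini-Hochberg over the kept probe sets. The fit was tested on simulated data. The number of arrays limits the precision.

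A gene's value is its probe set with the highest mean signal. The named genes are all 9 with their probe sets, up to 3 called genes a direction from each other list, largest difference first, and the 3 genes most alike in pattern. The 9 genes and the lists were chosen with earlier results of these data known. Alternatives were other scalings, c, no filter, the mean over probe sets, only the groups compared, a constant prior variance, array weights, blocks, the Gapdh ratio and leaving out arrays. The hybridisation run as a random block was added after seeing the data. The titles and the array files' descriptions number replicates differently, and the titles were used. Same-numbered arrays did not deviate together by either (r of -0.131 to 0.074 by titles, -0.02 to 0.11 by descriptions), so neither was taken to pair samples.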

Additional observations from a re-analysis of the deposited data

How the results depend on the processing

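In 923 repeats of 49 gene differences under the alternatives, 766 kept direction and side of the threshold, 101 lost the call, 4 gained one and 52 changed sign; the cause was not tested. Genes called in the day 7 sort, 4 of 9, were 1 with the run as a block, 0 with the Gapdh ratio and 0 to 4 with arrays left out. In Stella-positive culture the count of 6 became 3 with a constant prior variance, 3 without day 7 arrays 3 and 4, 0 with the Gapdh ratio and 1 to 6 with arrays left out. In Stella-negative culture 7 became 8 with median centring, which added Tfcp2l1, 0 with the Gapdh ratio and 6 to 7 with arrays left out. Stella-positive day 7 cells against unsorted ESC gave 2 with the mean over probe sets, 1 with a constant prior variance, 2 with the random block, 0 with the Gapdh ratio, 2 without arrays 3 and 4, and 2 to 4 with arrays left out, in place of 4. Stella-negative day 7 cells against unsorted ESC gave 0 with the Gapdh ratio and 4 to 6 with arrays left out, in place of 7. Unsorted against Stella-negative ESC gave 1 with the mean over probe sets. Unsorted against Stella-positive ESC gave 0, in place of 1, with median centring, the mean over probe sets, only the groups compared, a constant prior variance and the random block, and 0 to 1 with arrays left out. With the replicate block, which rests on numbers that do not pair the samples, 4 genes were called in the day 7 sort, 7 in Stella-negative and 3 in Stella-positive culture.

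Differences in the day 7 sort that changed sign were as follows. Klf4 became 0.16 with median centring, 0.0983 with the mean over probe sets, 0.11 with array weights, 0.24 without arrays 3 and 4, and -0.19 to 0.0629 with arrays left out. Tfcp2l1 became 0.16 with median centring, 0.0852 with the mean, 0.25 with weights, 0.12 with the replicate block, 0.23 with the run block, 0.41 without arrays 3 and 4, and -0.24 to 0.24 with arrays left out. Tbx3 became -0.79 with the mean, -0.12 with the replicate block, -0.0619 with the run block, -0.0138 without arrays 3 and 4, and -0.0268 to 0.22 with arrays left out. Socs3 became -0.34 with the mean and -0.10 to 0.35 with arrays left out. In the ESC sort Nr5a2 became 0.17 with the mean, 0.0054 with the run block, and -0.39 to 0.17 with arrays left out. In Stella-positive culture Nr5a2 became -0.38 with median centring, -0.0846 with the replicate block, and -0.12 to 0.25 with arrays left out. In Stella-negative culture Tbx3 became -0.43 with median centring and -0.0169 to 0.44 with arrays left out. The interaction of Tbx3 became -0.0465 with the mean.

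With the Gapdh ratio as covariate, the day 7 sort gave -0.31 for Klf5, -6e-04 for Esrrb and -1.17 for Socs3. Stella-positive culture gave 0.0877 for Klf5, 0.0222 for Esrrb, 0.0494 for Tfcp2l1, 0.31 for Nr0b1 and 0.0011 for Socs3. Stella-negative culture gave 0.10 for Klf4, 0.59 for Klf5, 0.48 for Esrrb, -0.82 for Tbx3, 2.10 for Tfcp2l1, 0.32 for Nr0b1 and 1.15 for Socs3. The interaction gave -0.45 for Esrrb and -0.0112 for Nr0b1. Stella-negative day 7 cells against unsorted ESC gave 0.0936 for Klf5, 0.31 for Esrrb and 1.29 for Tfcp2l1.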
